A study of Mus musculus with 19 samples.

Results

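The comparison set late times after tamoxifen against early times in FDCPmix, a line of multipotent blood progenitors from the mouse whose growth depends on interleukin-3. It used 15 of the 19 arrays of the series: 8 early arrays, taken at 3 h (4 arrays) and 7 h (4 arrays), and 7 late arrays, taken at 12 h (4 arrays) and 23 h (3 arrays), chosen by the time in each sample's source label. Replicate 2 at 23 h was not analysed here. The sample titles name an ES cell line beside FDCPmix without saying why, and no genotype, transgene or dose is given. The cells of every time point compared had received tamoxifen, an oestrogen receptor ligand. The reference was also of treated cells, but at 0 h, so with no hours of exposure counted. Each 2-colour array paired the RNA of 1 time point with a reference RNA from treated cells at 0 h, so the reference cancels in the late minus early difference. The RNA of the time point was labelled with Cy5 on 4 early and 3 late arrays and with Cy3 on 4 early and 4 late arrays. The other 4 arrays carry no stated time and compare treated with non-treated cells. Nothing in the labels says that replicates came from separate cultures, so p-values measure the spread between these samples, which may be technical.

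When oxygen is short, the transcription factor HIF binds a short core sequence near target genes and raises glycolytic enzymes, glucose transporters and mitochondrial quality control genes. Myeloid progenitors that mature toward neutrophils store elastase, myeloperoxidase and other proteins in granules, made in successive waves. Interleukin-3 holds FDCPmix cells in a self-renewing state through STAT5, and these cells can be moved toward neutrophils, macrophages or red cells when the cytokines change.

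Values are log2 ratios of the time point to the 0 h reference, each array centred on its median, and a difference is the late minus early term of a limma model with the dye as covariate. The numerator of the ratio is not given in the sources used here. Higher therefore means a higher deposited ratio, with the RNA of the time point taken as numerator. Ratios between preparations of the same line carry no absolute level, so the labelled cell type could not be checked against its markers. In bulk RNA, fewer cells of a type and less RNA per cell cannot be told apart.

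A pair of arrays stood apart, in part by gene ratios that also enter the comparison. On every array 1 extreme value was repeated on several spots, with a positive sign where the RNA of the time point was in Cy5 and a negative sign where it was in Cy3, except on 7 h replicate 4, a Cy3 array with the value 16.291. That array also carried many ratios of opposite sign to the other early arrays. The other array, 23 h replicate 3, had a deposited median of 0.233, against -0.004 to 0.008 on the other late arrays, and ratios of opposite sign for several granule genes. Both are kept in the values over 15 arrays and left out of those over 13 arrays. For granule genes, the values over 13 arrays thus leave out a late array that went the other way.

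Over 15 arrays, 0 of 16072 features (genes, or single probes without a gene name) passed an adjusted p of 0.05 in limma, which is 0% called. The smallest adjusted p was 0.335, and the other settings tried called 0 to 6. At an unadjusted p under 0.05, 576 features (3.58%) were higher late and 428 (2.66%) lower. Late arrays lay above every early array for 12 features (0.0747%), 1 of them with a symbol, the gene model Gm136, and below for 3 (0.0187%). Over 13 arrays, 2 of 16083 features (0.0124%) passed: the hypoxia gene Ndrg1 and probe 1098, which has no gene name here. At an unadjusted p under 0.05, 868 (5.4%) were then higher and 679 (4.22%) lower. Groups did not overlap for 56 features above (0.348%) and 28 below (0.174%). Without centring the arrays, 61.5% of features were higher late, beside 49.6% with it. Each dye on its own gave differences on the same side of 0 for 51.5% of 16066 features.

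Ndrg1, a cytoplasmic protein induced by hypoxia and by differentiation, was below the 0 h reference early and close to it late. Its log2 ratios were -1.20, -0.86, -1.29 and -1.25 at 3 h and -0.90, -1.22, -1.40 and 1.0 at 7 h, the last on 7 h replicate 4. They were -0.26, -0.13, -0.55 and -0.79 at 12 h and 0.03, -0.01 and -0.13 at 23 h. Apart from 7 h replicate 4, every early array lay below every late array, and all 3 of the 23 h arrays stood at -0.13 or above. The late minus early difference was 0.62 (SE 0.30, limma adjusted p = 0.799) over 8 early and 7 late arrays, and 0.88 (SE 0.10, limma adjusted p = 0.0115) over 13 arrays. The difference was 0.92 on Cy5 arrays alone and 0.36 on Cy3 arrays alone, and 0.23 over 15 arrays if every Cy3 array had the opposite sign. The value on Cy3 arrays includes 7 h replicate 4, where Ndrg1 stood at 1.0, and 23 h replicate 3. On the 4 treated arrays without a stated time, against non-treated cells, Ndrg1 ranged from -1.52 to -0.64.

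Probe 1098 took the same course. It ran from -1.33 to -0.58 on the early arrays other than 7 h replicate 4, where it stood at 1.53, and from -0.29 to 0.02 on the late arrays. The difference was 0.92 (SE 0.11, limma adjusted p = 0.0115) over 13 arrays and 0.59 (adjusted p = 0.83) over 15.

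Selenbp1 and Selenbp2, a close paralog pair that encodes selenium-binding proteins, had the same shape, and whether their probes tell them apart was not tested. Selenbp1 stood at -0.75, -1.09, -0.61 and -1.35 at 3 h and at -0.73, -0.76, -0.86 and 0.72 at 7 h. At 12 h it was -0.25, -0.06, -0.27 and -0.23, and at 23 h 0.14, 0.00 and -0.09. Without 7 h replicate 4 no early value reached a late one. The difference was 0.56 (SE 0.22, limma adjusted p = 0.791) over 15 arrays and 0.76 (SE 0.11, adjusted p = 0.0832) over 13. Selenbp2 differed by 0.41 over 15 arrays and 0.64 (SE 0.12, limma adjusted p = 0.195) over 13, where its groups overlapped.

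Fam162a, a mitochondrial protein that answers to HIF, and Bnip3, a receptor that marks mitochondria for removal, are shown with their promoters because both are textbook HIF targets. Fam162a ranged from -1.19 to -0.54 on the early arrays other than 7 h replicate 4 and from -0.40 to 0.25 on the late arrays. These ranges did not overlap, and the difference was 0.46 (SE 0.21, limma adjusted p = 0.791) over 15 arrays and 0.63 (SE 0.12, adjusted p = 0.195) over 13. Bnip3 had its lowest ratios at 3 h, -1.09, -1.01, -1.74 and -1.69, and already spread from -1.01 to 0.12 at 7 h without replicate 4. Its late arrays ran from -0.87 to 0.16, so the groups overlapped, and the difference was 0.48 (SE 0.34, limma adjusted p = 0.841) over 15 arrays and 0.74 (SE 0.20, adjusted p = 0.386) over 13.

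**Figure D1:**
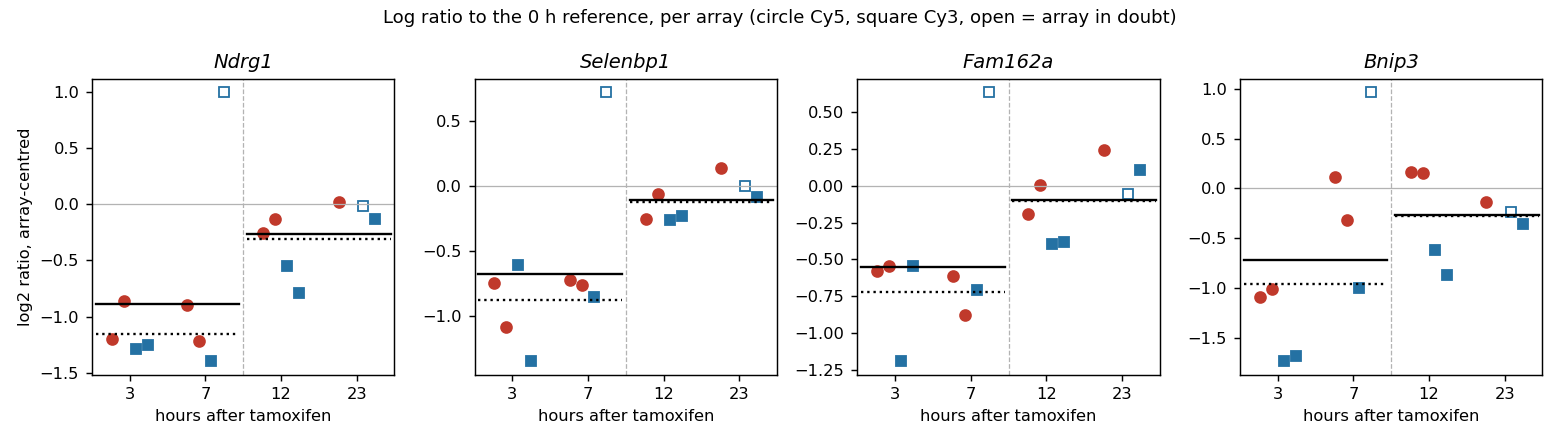
Log2 ratio to the 0 h reference of Ndrg1, Selenbp1, Fam162a and Bnip3 on each array (y) by hours after tamoxifen (x), with circles for Cy5 and squares for Cy3 arrays. Open symbols are 7 h replicate 4 and 23 h replicate 3; solid lines are the early and late means over 15 arrays and dotted lines the means over 13, and the open 7 h square lies above all other early points, at 1.0 for Ndrg1.

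The following windows run from 250 bases before to 50 after the transcription start, as RefSeq gives it on GRCm38.p6, and are printed 5′ to 3′ on the gene's strand. Capitals mark the HIF core, ACGTG or GCGTG, on either strand, so that it also appears as CACGT or CACGC; neighbouring or overlapping matches run together. Bnip3 lies on chr7:138909457-138909756 (minus strand), Fam162a on chr16:36071512-36071811 (minus strand), Selenbp1 on chr3:94932833-94933132 (plus strand) and Selenbp2 on chr3:94693323-94693622 (plus strand).
Bnip3: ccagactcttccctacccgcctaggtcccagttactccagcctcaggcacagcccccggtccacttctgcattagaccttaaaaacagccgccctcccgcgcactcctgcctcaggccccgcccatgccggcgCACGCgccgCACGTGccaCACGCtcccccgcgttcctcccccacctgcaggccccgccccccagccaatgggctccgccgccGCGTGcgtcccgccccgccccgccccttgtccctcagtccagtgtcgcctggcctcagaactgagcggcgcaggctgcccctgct
Fam162a: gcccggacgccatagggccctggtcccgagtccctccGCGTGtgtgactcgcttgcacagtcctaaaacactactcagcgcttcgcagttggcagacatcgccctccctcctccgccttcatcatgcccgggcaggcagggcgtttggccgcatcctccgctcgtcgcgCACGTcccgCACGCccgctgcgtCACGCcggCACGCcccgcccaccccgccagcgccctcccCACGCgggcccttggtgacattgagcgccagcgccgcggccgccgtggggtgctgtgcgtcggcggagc
Selenbp1: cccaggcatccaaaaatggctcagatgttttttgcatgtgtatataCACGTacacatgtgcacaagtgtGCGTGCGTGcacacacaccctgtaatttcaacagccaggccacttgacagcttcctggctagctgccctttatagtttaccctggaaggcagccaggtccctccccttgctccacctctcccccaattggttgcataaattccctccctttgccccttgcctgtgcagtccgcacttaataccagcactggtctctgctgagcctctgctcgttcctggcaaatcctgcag
Selenbp2: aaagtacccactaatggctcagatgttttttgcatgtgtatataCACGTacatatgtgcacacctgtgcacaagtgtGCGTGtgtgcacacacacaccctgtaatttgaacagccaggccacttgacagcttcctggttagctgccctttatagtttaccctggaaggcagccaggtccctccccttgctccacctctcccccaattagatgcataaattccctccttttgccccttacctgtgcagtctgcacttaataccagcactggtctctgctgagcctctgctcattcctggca

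The Bnip3 window held 2 ACGTG and 3 GCGTG matches and the Fam162a window 1 and 5. Both ACGTG matches of Bnip3 come from the same palindrome, CACGTG, counted on each strand. Selenbp1 held 1 and 2, and Selenbp2 1 and 1. Among all 32841 promoters of this length 43.8% held a core match, and among 7907 genes tested here 64.9% did, counting a gene if any of its promoters held one. Both lists were drawn mostly from genes known to answer to hypoxia or to serve glycolysis. Selenbp1 and Selenbp2 were also in the hypoxia list, and the lists were chosen with earlier results of these data known. All 15 hypoxia list members with a promoter held the core (100%), as did 14 of 16 glycolysis genes (87.5%). For ACGTG alone the shares were 14 of 15 and 11 of 16 (68.8%), against 28.1% of the genes tested. A match is only a string of letters, and no binding was measured.

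The hypoxia list outside glycolysis held 22 symbols, of which 17 had a probe and all 17 were tested. Selenbp1 and Selenbp2 were among them, and the list was chosen with earlier results of these data known, so its counts are not independent of those results. Over 15 arrays 12 were higher late and 5 lower, with a median difference of 0.10, beside -0.0012 and 49.6% higher over all features. None passed the adjusted test in limma and 2 had an unadjusted p under 0.05, both higher, beside 3.58% of all features. Over 13 arrays the median was 0.14, 6 of 17 were higher at an unadjusted p under 0.05, beside 5.4% of all features (Bnip3, Fam162a, Ndrg1, Selenbp1, Selenbp2 and Vegfa), and Ndrg1 passed the adjusted test. Vegfa, the vascular growth factor, differed by 0.32 (SE 0.10, limma adjusted p = 0.412) over 13 arrays. Among the regulators, over 13 arrays, Hif1a, the oxygen-regulated HIF subunit, differed by 0.01 (SE 0.07), Egln1, a prolyl hydroxylase that marks it for decay, by -0.01 (SE 0.10), and Egln3, another, by 0.08 (SE 0.06). P4ha1 and Ero1a, which modify collagen and form disulphide bonds, differed by -0.01 (SE 0.18) and -0.06 (SE 0.17) over 13 arrays, and Ero1a by -0.15 (SE 0.22) over 15.

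Genes of glycolysis and glucose uptake were also mostly higher late. Of 24 symbols 17 had a probe and were tested, 14 of them higher and 3 lower over 15 arrays, with a median of 0.12. Over 13 arrays 13 were higher, the median was 0.17, and 7 of 17 were higher at an unadjusted p under 0.05, beside 5.4% of all features: Aldoa, Pdk1, Pfkp, Pgm1, Pkm, Slc2a3 and Tpi1. None passed the adjusted test in limma in either fit, and none of the 17 separated the groups.

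Aldoa, an aldolase, ran from -0.66 to -0.40 on the early arrays other than 7 h replicate 4, which stood at 0.66, and from -0.64 to 0.07 late. Slc2a3, a glucose transporter, ran from -1.03 to -0.36 early, with 0.56 on 7 h replicate 4, and from -0.51 to 0.15 late. Both genes were low on nearly every early array and nearer to 0 late, with overlap at 12 h for both and also at 23 h for Slc2a3, where replicate 1 stood at -0.39. Their differences were 0.13 (SE 0.17) and 0.20 (SE 0.18) over 15 arrays, and 0.24 (SE 0.07, limma adjusted p = 0.392) and 0.29 (SE 0.10, adjusted p = 0.423) over 13.

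Pdk1, the kinase that closes the entry of pyruvate into mitochondria, had the smallest p of the list over 15 arrays, with a difference of 0.33 (SE 0.12, limma adjusted p = 0.791). Its Cy5 arrays gave 0.55 and its Cy3 arrays 0.13, and 23 h replicate 4 was at -0.48 while 12 h replicates 1 and 2 were at 0.47 and 0.43. Hk1 and Hk2, which start glycolysis, were not on the same side in both dyes: -0.35 and -0.44 on Cy5 arrays against 0.30 and 0.18 on Cy3 arrays.

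**Figure D2:**
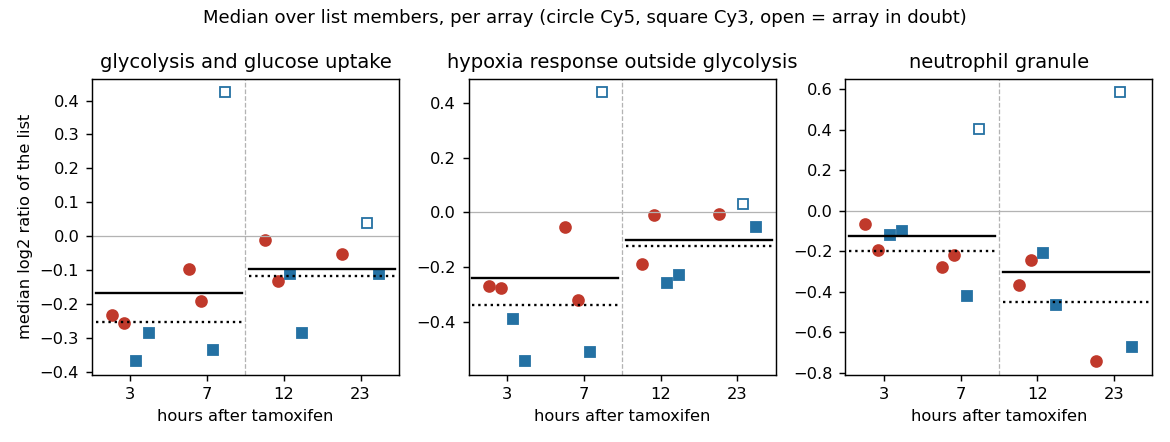
Median log2 ratio of each list (y) on each array by hours after tamoxifen (x), with circles for Cy5, squares for Cy3 and open symbols for 7 h replicate 4 and 23 h replicate 3. The solid and dotted lines are group means over 15 and 13 arrays; 7 h replicate 4 stands at 0.42 for glycolysis and 23 h replicate 3 at 0.58 for the granule list.

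Neutrophil granule genes were mostly lower late. Of 24 symbols 15 had a probe and were tested; 11 were lower and 4 higher late over 15 arrays, with a median of -0.17, and 1 was lower at an unadjusted p under 0.05, beside 2.66% of all features. Over 13 arrays, which leave out 23 h replicate 3 with its granule median of 0.58, the median was -0.23. At that level 6 of 15 were then lower (Elane, Lcn2, Mmp8, Ngp, S100a8 and S100a9), beside 4.22% of all features, and 3 higher (Cebpe, Cybb and Prtn3), beside 5.4%. None passed the adjusted test in limma in either fit.

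Elane, neutrophil elastase, was lower at each later time on most arrays. It stood at -0.08, -0.06, -0.10 and -0.15 at 3 h, and at -0.45, -0.38, -0.42 and 0.23 at 7 h. At 12 h it was -0.55, -0.47, -0.42 and -0.54, and at 23 h -0.78, 1.04 and -1.10. The high values belong to 7 h replicate 4 and 23 h replicate 3, and the 7 h and 12 h arrays met near -0.42. The difference was -0.25 (SE 0.23, limma adjusted p = 0.868) over 15 arrays and -0.41 (SE 0.12, adjusted p = 0.391) over 13. When each of the 4 times had equal weight over 13 arrays, limma called 6 of 16083 features. These were Elane at -0.46, Lyz2 at -0.55, Glud1, Tctex1d1, Ndrg1 and probe 1098. That setting was chosen after seeing the data. It leaves out 23 h replicate 3, which stood apart in part by granule genes such as Elane. The calls of Elane and Lyz2 are therefore not independent of that choice.

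Mmp8 and Ngp, a collagenase and a protein of the later granules, differed by -0.55 (SE 0.14, limma adjusted p = 0.386) and -0.50 (SE 0.12, adjusted p = 0.382) over 13 arrays. S100a8, a calcium-binding protein abundant in neutrophil cytosol, had the smallest p of the list over 15 arrays. Its early arrays ran from -0.62 to 0.44 with a median of 0.02 and its late arrays from -0.86 to 0.33 with a median of -0.41. The groups overlapped, and the difference was -0.40 (SE 0.18, limma adjusted p = 0.791).

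Prtn3, a serine protease of the same early granules as elastase, did not follow it. Over 13 arrays its early values ran from -0.29 to 0.09 and its late values from -0.10 to 0.285, with a difference of 0.20 (SE 0.08, limma adjusted p = 0.471). On 7 h replicate 4 it stood at 0.39 and on 23 h replicate 3 at 0.32. Cybb, the membrane subunit of the oxidase that makes superoxide, differed by 0.20 (SE 0.09, limma adjusted p = 0.498). Its highest value, 0.82, was again on 23 h replicate 3.

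Lyz2, the lysozyme of macrophages and neutrophils, had the smallest p of the granule and monocyte lists over 13 arrays. It stood at -0.28, -0.29, -0.25 and -0.10 at 3 h and at -0.38, -0.37, -0.43 and 0.55 at 7 h. It was -0.75, -0.63, -0.58 and -0.98 at 12 h and -0.95, 1.08 and -1.05 at 23 h. Without 7 h replicate 4 and 23 h replicate 3 every late array lay below every early one. The difference was -0.38 (SE 0.26, limma adjusted p = 0.84) over 15 arrays and -0.52 (SE 0.09, adjusted p = 0.195) over 13. Of the 10 monocyte and macrophage genes tested, Lyz2 included, 4 were higher and 6 lower over 15 arrays, and the median was -0.02. Irf8, a monocyte transcription factor, differed by -0.10 (SE 0.27) over 15 arrays and 0.04 (SE 0.15) over 13. Over 13 arrays Cd68 differed by 0.08 (SE 0.09) and Fcgr3 by -0.03 (SE 0.07).

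**Figure D3:**
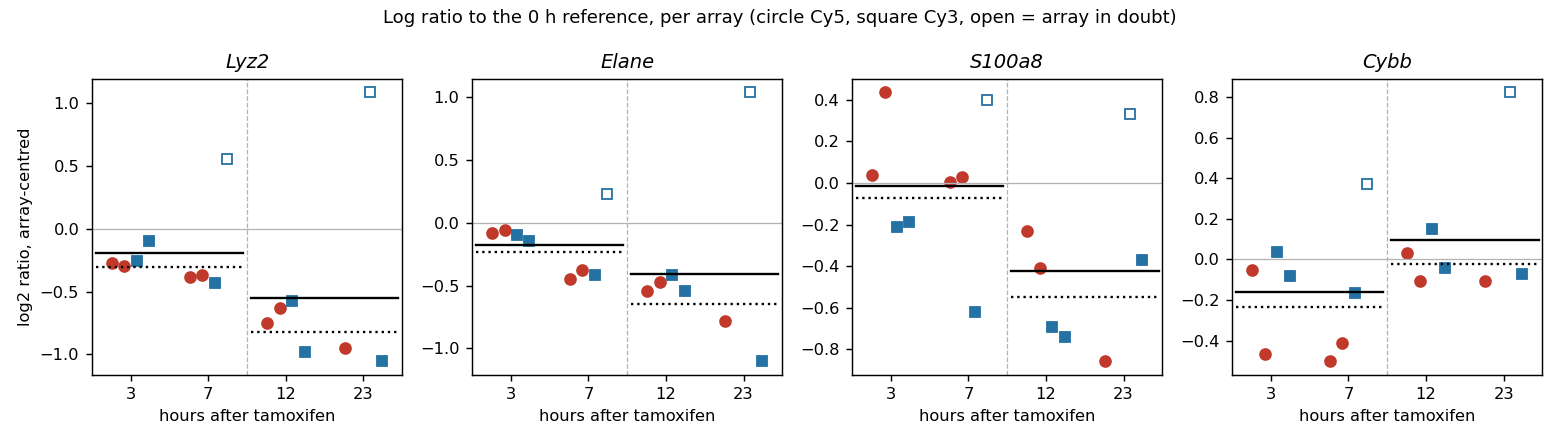
Log2 ratio to the 0 h reference of Lyz2, Elane, S100a8 and Cybb on each array (y) by hours after tamoxifen (x), with circles for Cy5, squares for Cy3 and open symbols for 7 h replicate 4 and 23 h replicate 3. Solid and dotted lines are group means over 15 and 13 arrays; the open 23 h square lies at 1.08 for Lyz2 and 1.04 for Elane, while the other 23 h arrays are at -0.78 or lower for both.

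Dye and time were crossed, so each list could be read on each dye alone. Both 7 h replicate 4 and 23 h replicate 3 are Cy3 arrays. All values on Cy3 arrays alone include them, so the dyes do not compare like with like. The granule list had 11 of 15 members lower on both dyes and 2 higher on both. The hypoxia list had 10 of 17 higher on both and 2 lower on both, and the glycolysis list 10 of 17 higher on both and 0 lower on both. The same-side shares were 86.7%, 70.6% and 58.8%, beside 51.5% over all features. Medians on Cy5 and Cy3 arrays were -0.26 and -0.12 for granule genes, 0.09 and 0.11 for hypoxia genes and 0.17 and 0.05 for glycolysis. If every Cy3 array had the opposite sign, the medians would be -0.03, 0.03 and 0.04 over 15 arrays and 0.011, -0.0036 and 0.01 over 13 arrays, and no member of these lists would pass the adjusted test. Under that reading 1 of 16072 features (0.00622%), Mfap3l, would pass, and 31 of the 95 genes and probes followed would change side. With only the signs of 7 h replicate 4 and 23 h replicate 3 turned, 4 of 16072 passed in limma (0.0249%): Ndrg1, Selenbp1, Stard3 and probe 1098. Without 7 h replicate 4 alone 3 of 16081 passed (0.0187%), Ndrg1, Selenbp1 and probe 1098, and without 23 h replicate 3 alone 0 of 16074, with 1308 at an unadjusted p under 0.05.

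**Figure D4:**
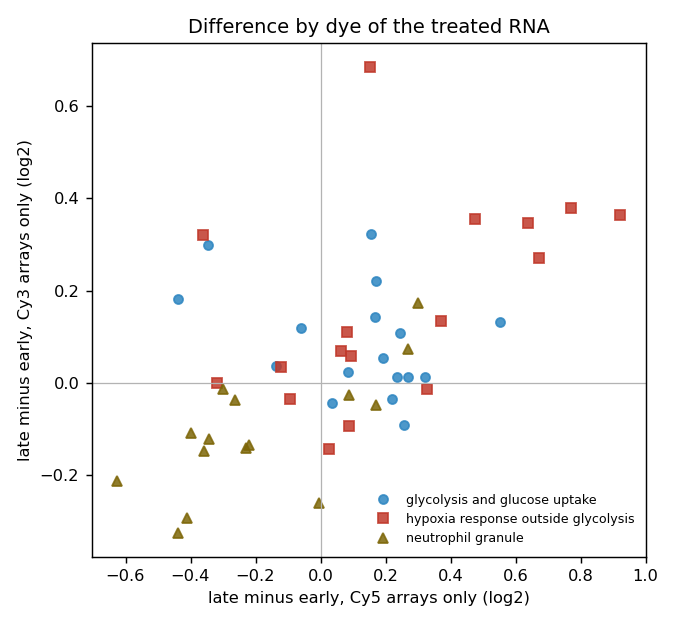
Late minus early difference on Cy5 arrays (x, log2) against that on Cy3 arrays (y, log2) for the tested members of 3 lists, each point 1 gene. Granule genes (triangles) sit mostly in the lower left, 11 of 15, and hypoxia genes (squares) mostly in the upper right, 10 of 17.

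Lipid synthesis leaned toward higher late values. Of 18 cholesterol and fatty acid synthesis genes tested over 15 arrays (29 symbols, 19 with a probe), 12 were higher and 6 lower. The median was 0.05, and 49.6% of all features were higher. At an unadjusted p under 0.05, 1 of the 18 was higher, beside 3.58% of all features. With the signs of all Cy3 arrays changed, the median would be 0.004. Scd2, a fatty acid desaturase, differed by 0.34 (SE 0.08, limma adjusted p = 0.358) over 13 arrays, from early values of -0.60 to -0.24 to late values of -0.35 to 0.11. Fdps, which makes farnesyl diphosphate, ran from -0.66 to -0.37 early and -0.36 to 0.05 late over 13 arrays, with no overlap and a difference of 0.28 (SE 0.08, limma adjusted p = 0.391). Hmgcs1 and Sqle, other enzymes of the sterol route, differed by -0.10 (SE 0.09) and -0.05 (SE 0.10) over 13 arrays, and Sqle by -0.07 (SE 0.10) over 15.

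Interleukin-3 and STAT5 targets had 10 of 13 members higher over 15 arrays with a median of 0.04, none at an unadjusted p under 0.05. Odc1, the first enzyme of polyamine synthesis, had the smallest p of that list over 15 arrays, with a difference of 0.19 (SE 0.16, limma adjusted p = 0.855). The difference was 0.06 without 7 h replicate 3 alone, where Odc1 stood at -0.96, and 0.34 (SE 0.14, limma adjusted p = 0.465) over 13 arrays. Dusp1, an immediate early phosphatase of MAP kinases, differed by 0.30 (SE 0.07, limma adjusted p = 0.301) over 13 arrays.

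Genes of the cell cycle lay on both sides of 0. S phase and DNA replication had 18 of 28 higher and a median of 0.04, and G2 and M phase 19 of 39 higher and a median of -0.0027. Mcm6, a subunit of the replicative helicase, ran from -0.23 to 0.11 early and from -0.10 to 0.37 late, a difference of 0.22 (SE 0.07, limma adjusted p = 0.791). Chaf1b, a histone chaperone of replication, differed the other way, by -0.22 (SE 0.07, limma adjusted p = 0.791). Smc4, a condensin subunit, was higher on every 12 h array than on any other array, at 0.74, 0.79, 0.74 and 0.63. At 23 h it was 0.21, -0.45 and 0.55, and at 3 h and 7 h from -0.32 to 0.48.

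Cdkn1a, the p53 target that stops the cell cycle, was low early and close to the 0 h level late. It ran from -0.63 to -0.18 on the early arrays other than 7 h replicate 4, which stood at 0.34, and from -0.28 to 0.04 on the late arrays. The difference was 0.28 (SE 0.12, limma adjusted p = 0.791) over 15 arrays and 0.37 (SE 0.07, adjusted p = 0.195) over 13. The p53 list had 7 of 9 members higher and a median of 0.04.

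Protein folding and ribosome assembly leaned lower. Heat shock proteins and chaperones had 17 of 23 members lower over 15 arrays with a median of -0.06, and 18 lower with a median of -0.10 over 13. Cct3, a subunit of the ring chaperonin, differed by -0.23 (SE 0.10, limma adjusted p = 0.791) and Fkbp4, a cochaperone of steroid receptors, by -0.23 (SE 0.10, adjusted p = 0.791). Ribosome biogenesis had 18 of 27 lower with a median of -0.08, Nop58, a core protein of guide RNA complexes in the nucleolus, at -0.23 (SE 0.10, limma adjusted p = 0.791). With the signs of all Cy3 arrays changed, the medians of these 2 lists would be -0.0039 and 0.0040. Cytosolic ribosomal proteins had 23 of 57 higher with a median of -0.01, and mitochondrial ones 35 of 63 with a median of 0.0035.

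The unfolded protein and amino acid stress list had 18 of 27 lower and a median of -0.06. Hspa5, the main chaperone of the endoplasmic reticulum, differed within the early group. It was -0.09, 0.06, -0.32 and -0.47 at 3 h and 0.30, 0.27, 0.30 and 0.27 at 7 h. At 12 h it was -0.14, -0.21, -0.09 and -0.41, and at 23 h -0.56, 0.25 and -0.38. The 7 h arrays were thus the high group, and the pooled difference was -0.26 (SE 0.14, limma adjusted p = 0.83). Xbp1, the transcription factor of this response, differed by -0.63 on Cy5 arrays and 0.02 on Cy3 arrays.

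**Figure D5:**
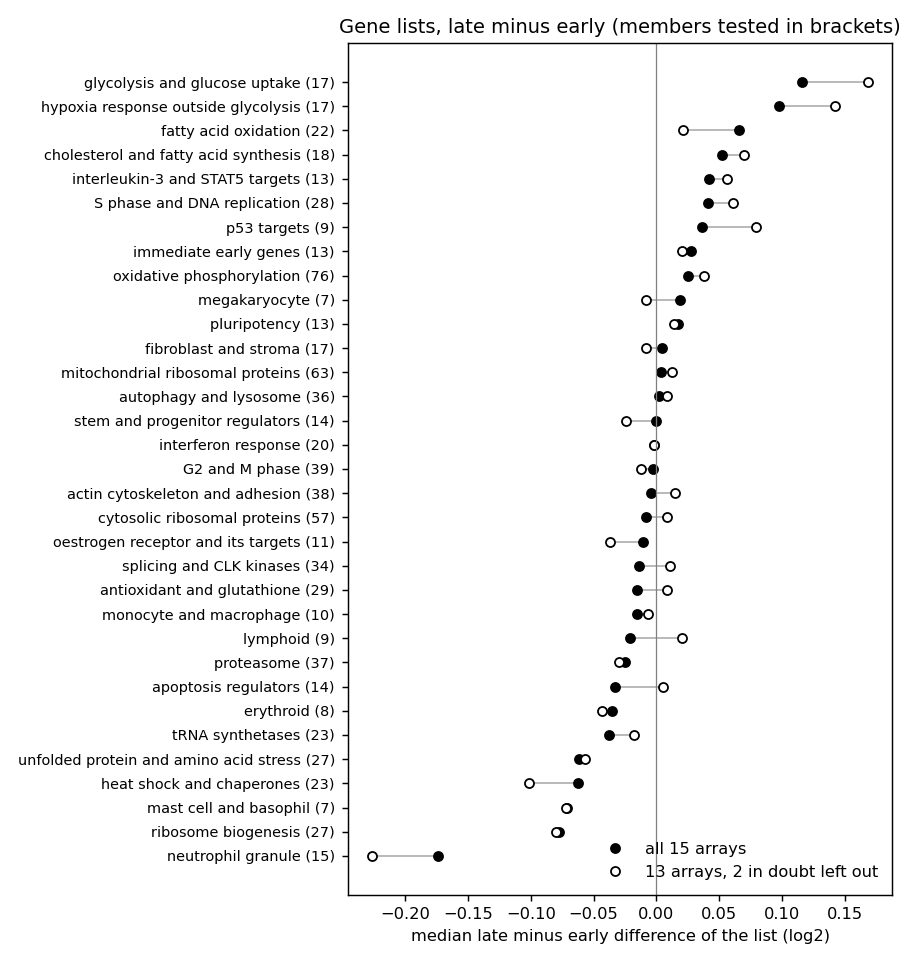
Median late minus early difference (x, log2) of 33 gene lists (y, members tested in brackets), filled over 15 arrays and open over 13. Glycolysis and hypoxia lie highest at 0.12 and 0.10 over 15 arrays and the granule list lowest at -0.17; the other lists lie between -0.08 and 0.07.

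Of the remaining lists, oxidative phosphorylation had 49 of 76 members higher with a median of 0.03, and its smallest p was that of Ndufa13, a subunit of complex I, at 0.25 (SE 0.08, limma adjusted p = 0.791). Fatty acid oxidation had 14 of 22 higher with a median of 0.07, which was 0.02 over 13 arrays. Acadl, its gene with the smallest p, rested on 12 h replicates 1 and 2, at 1.07 and 1.75, while the other late arrays ran from -0.11 to 0.11. Proteasome, tRNA synthetase, antioxidant, apoptosis, actin, autophagy, interferon and splicing lists had medians between -0.0376 and 0.0019, and immediate early genes 0.03.

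Median differences of marker lists of other cell types were -0.04 for erythroid, 0.02 for megakaryocyte, -0.02 for lymphoid, -0.07 for mast cell and basophil, 0.02 for pluripotency and 0.0044 for fibroblast and stroma genes. In that order the lists had 8, 7, 9, 7, 13 and 17 members tested. None of these 6 lists had a member that passed the adjusted test in limma. At an unadjusted p under 0.05 only 1 gene was lower, the erythroid Nfe2, beside 2.66% of all features. Only 1 was higher, the lymphoid Cd3g, beside 3.58%. Nfe2, an erythroid and megakaryocyte transcription factor, differed by -0.21 (SE 0.08, limma adjusted p = 0.791), and the haemoglobin gene Hba-a1 by 0.17 (SE 0.10, adjusted p = 0.83). Regulators of stem and progenitor cells had a median of -0.0002. Among them Erg ran from -0.24 to 0.35 early and from -0.39 to -0.03 late, a difference of -0.24 (SE 0.08, limma adjusted p = 0.791), and Bmi1 differed by 0.14 (SE 0.06, adjusted p = 0.791). Esr1, the oestrogen receptor that binds tamoxifen, stayed between -0.21 and 0.11 on all 15 arrays, with a difference of 0.02 (SE 0.06, limma adjusted p = 0.963). The list of that receptor and its targets had 5 of 11 members higher and a median of -0.01.

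Single genes outside the lists with the smallest p-values were few and of unlike function. Gtf3c6, a subunit of the factor that recruits RNA polymerase III, was the only gene besides Gm136 with no overlap over 15 arrays. Its early arrays ran from 0.13 to 1.20 and late arrays from -0.30 to 0.09. The difference was -0.63 (SE 0.14, limma adjusted p = 0.791), and -0.55 (SE 0.11, adjusted p = 0.236) over 13 arrays. Polr3a, the largest subunit of the same polymerase, differed by -0.42 (SE 0.12, limma adjusted p = 0.791), with early arrays from -0.09 to 0.75 and late arrays from -0.39 to 0.08.

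Ubqlnl, a ubiquilin-like gene, had the smallest p of the named genes that were higher late. Its early arrays ran from -0.38 to 0.05 and its late arrays from -0.02 to 0.25, and the difference was 0.28 (SE 0.06, limma adjusted p = 0.577). Kank3, an ankyrin repeat protein, Cfap20, a protein of cilia, and Nr5a2, an orphan nuclear receptor, differed by 0.37, 0.34 and 0.24 over 15 arrays, each with an adjusted p of 0.791. Nsfl1c, a cofactor of the ATPase p97, and Bag1, a cochaperone, had larger differences, -0.95 (SE 0.24) and -1.23 (SE 0.35), from wider arrays. Nsfl1c ran from -0.29 to 1.43 early and from -2.06 to 0.13 late.

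Nsrp1 and Clk4, both of the splicing list, each rested on the arrays of 1 time. Nsrp1, a splicing regulator, was low on 3 of the 3 h arrays, at -1.44, -3.54 and -2.26, with 0.07 on replicate 3. Its 7 h arrays ran from 0.04 to 0.86 and its late arrays from 0.54 to 1.84, so the difference of 1.64 (SE 0.54, limma adjusted p = 0.791) rested on the 3 h arrays. Clk4, a kinase of splicing factors, was high at 12 h alone, at 0.71, 1.89 and 2.00, with no value on replicate 1. At 23 h it was 0.23, -0.27 and 0.02, and its difference of 0.87 (SE 0.32, limma adjusted p = 0.791) rested on 12 h.

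Times within each phase were also compared, from the same arrays. Between 7 h and 3 h, 1539 of 16072 features had an unadjusted p under 0.05 over 15 arrays, beside 1004 for late versus early. There limma called 0 of 16072 (0%), and 1 of 16083 (0.00622%) over 13 arrays. Between 23 h and 12 h it called 2 probes without a gene name over 15 arrays (0.0124%), with 556 at an unadjusted p under 0.05. Over 13 arrays it called 7 (0.0435%), among them Mpo, the myeloperoxidase of the early granules. Mpo stood at -0.16, -0.20, -0.21 and -0.34 at 12 h and at -0.90 and -0.92 on 23 h replicates 1 and 4, with 0.88 on replicate 3. Over 13 arrays the 23 h minus 12 h difference was -0.69 (SE 0.10, limma adjusted p = 0.0478), while its late minus early difference was -0.29 (SE 0.14, adjusted p = 0.527). Hs1bp3 and the fatty acid transporter gene Slc27a5 were higher at 23 h than at 12 h by 0.98 (SE 0.10) and 1.09 (SE 0.12) over 13 arrays. Both had a limma adjusted p = 0.0108 there. At 23 h the 13 arrays hold only replicates 1 and 4.

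The late minus early difference itself differed between dyes for 1 of 16072 features over 15 arrays (0.00622%), with 1021 at an unadjusted p under 0.05. That gene, Mfap3l, had a difference of 1.12 on Cy5 arrays and -1.36 on Cy3 arrays, and the interaction was -2.48 (SE 0.31, limma adjusted p = 0.0198). Over 13 arrays 0 features passed this interaction test in limma, with 850 at an unadjusted p under 0.05.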

How the data were processed

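Per the labels' protocols, cDNA made from total RNA carried its dye, Cy3 or Cy5, through indirect labelling; the same texts also mention organs and a pool of control animals that do not match a cell line. The authors deposited 1 log ratio per spot for 20205 probes, taken here as log2. The base, numerator, background correction and normalization were not given in the sources used here. No spot signals were used. Precision is limited by the number of arrays; the median SE of a difference was 0.09. Values beyond 10 in size were set to missing. Each array was centred on its median. Probes with the same single gene symbol in the platform annotation were averaged: 13891 probes had 1 symbol, 5 several and 6309 none, giving 9834 genes. Features with values on at least 6 early and 5 late arrays were fitted with limma 3.58.1 in R 4.3.3 (lmFit and eBayes, dye as covariate), with Benjamini-Hochberg adjustment. Scripts were tested on simulated data.

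The members and gene lists were chosen with earlier results of these data known. Named were, per direction, the 12 genes with the smallest p and up to 5 with no overlap and values on every array, the 2 members of smallest p in each list with at least 5 tested, and Bnip3, Ndrg1, Selenbp1, Selenbp2, Clk4, Smc4 and Esr1. Elane, Gm136, Mfap3l, probe 1098, members named to fill out a list and genes called in another setting were named after their values were seen. Promoter windows are from RefSeq (GRCm38.p6); Ndrg1 and Slc2a3 have none printed.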

Additional observations from a re-analysis of the deposited data

Results flagged for a closer look

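The early and the late values of each named gene, list median and array measure, 258 groups in all, were checked for a single array far from the rest, and 32 had one. Chance gives about 1 in 20 for independent groups. These groups share arrays, and lists share genes with named members, so the count cannot be held against that rate. Of the 32, 12 were on 7 h replicate 4 and 9 on 23 h replicate 3. Some genes were named because they passed with those arrays left out or turned, which favours flags there. On 7 h replicate 4 the early group's farthest value was 0.72 for Selenbp1, 0.63 for Fam162a, 0.18 for Scd2, 0.35 for Fdps, 0.55 for Lyz2, -0.43 for Nek2, 0.34 for Cdkn1a, 1.0 for Ndrg1, 1.26 for Selenbp2 and 1.53 for probe 1098. Its list medians were 0.42 for glycolysis and 0.40 for granule genes. On the other early arrays Nr5a2 stood out at -0.35 on 3 h replicate 1, Acadl at -0.31 on 3 h replicate 2 and Rps6 at 0.62 on 3 h replicate 4.

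On 23 h replicate 3 the late group's farthest value was 0.233 for the deposited median of the array, -0.40 for Odc1, 0.16 for Klf2, 0.82 for Cybb, 1.08 for Lyz2, -0.16 for Esr1 and 1.04 for Elane. Its list medians were 0.58 for granule genes and -0.12 for S phase genes. On 23 h replicate 1, Pelp1 stood at -0.06, Nsfl1c at -2.06, Rhoa at -0.57 and Psmd7 at -1.30. On 12 h replicate 4, Cdkn1a stood at -0.28, the mast cell and basophil median at -0.51 and the cytosolic ribosomal protein median at -0.33. On 23 h replicate 4 the p53 list median stood at 0.11. Between dyes, the late minus early difference of Mfap3l differed by -2.48 (limma adjusted p = 0.0198).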

How the results depend on the processing

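The late versus early count was 0 over 15 arrays in limma, with 1004 features at an unadjusted p under 0.05. It was 2 without 7 h replicate 4 and 23 h replicate 3, 1 with the signs of all Cy3 arrays changed, 3 with the sign of 7 h replicate 4 turned and 4 with the signs of both arrays turned. Without both arrays it was 6 with the 4 times weighted equally and 2 with array weights. Turning signs on those arrays, and every setting that leaves both out and alters something else, was chosen after seeing the data. Leaving out 1 array at a time gave 0 to 3, the 3 without 7 h replicate 4. It stayed 0 on either dye alone, without the dye term, linear in hours, with other scalings, filters or probes not averaged, and with a robust prior. The 23 h versus 12 h count of 2 became 7 without both arrays and 4 with Cy3 signs changed, and 1 to 14 when 1 array was left out, the 14 without 12 h replicate 4. The 7 h versus 3 h count of 0 became 1 without both arrays and 0 to 2 when 1 was left out. The interaction count of 1 became 0 without both arrays, 0 with Cy3 signs changed and 0 to 5 when 1 was left out, the 5 without 23 h replicate 1. The cause of these changes was not tested.

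With the replicate block the late versus early count was again 0, with 830 features at an unadjusted p under 0.05. Whether replicate numbers paired the samples was not settled, since same-numbered arrays also share a dye. With time removed, same-numbered arrays correlated between -0.108 and 0.21, and 5 of 15 arrays correlated best with their own number. With dye removed as well, the correlations ran from -0.198 to 0.022, and 0 of 15 arrays did so.

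With Cy3 signs changed, differences moved to the other side of 0 for Shpk (-0.046), Galc (-0.044), Cfap20 (-0.020), Ppm1e (-0.15), Hsd17b11 (-0.011), Odc1 (-0.11), Cd68 (-0.12), Hba-a1 (-0.16), Nek2 (-0.15), Smc4 (-0.024), Ifit3 (-0.059), Mrpl46 (-0.050), Mrps25 (-0.14), Ndufa13 (-0.11), Ndufa2 (-0.13), Clk4 (-0.40) and Esr1 (-0.0080). They also did for Gtf3c6 (0.094), Nsfl1c (0.23), Atoh8 (0.0009), Bag1 (0.59), Rnf130 (0.015), Hmgn2 (0.038), Gata2 (0.037), Fcer1g (0.020), Dcn (0.015), Cct3 (0.11), Acsl5 (0.077), Ulk1 (0.026), Nars (0.18) and Mfap3l (1.25). With both arrays left out and Cy3 signs changed, they did for Shpk (-0.023), Galc (-0.011), Cfap20 (-0.035), Ppm1e (-0.14), Scd2 (-0.0024), Odc1 (-0.25), Dusp1 (-0.0005), Cd68 (-0.11), Hba-a1 (-0.19), Tcl1 (-0.035), Nek2 (-0.094), Smc4 (-0.047), Cdkn1a (-0.049), Mrpl46 (-0.025), Mrps25 (-0.18), Ndufa13 (-0.058), Ndufa2 (-0.19), Bnip3 (-0.061), Selenbp2 (-0.13), Clk4 (-0.51), Esr1 (-0.049) and probe_1098 (-0.062). On the positive side they did for Nsfl1c (0.15), Bag1 (0.39), Hmgn2 (0.027), Lyz2 (0.047), Gata2 (0.034), Dcn (0.0017), Cct3 (0.15), Fkbp4 (0.0060), Acsl5 (0.077), Ulk1 (0.032), Nars (0.19), Elane (0.027) and Mfap3l (1.15). Cy5 arrays alone did so for Cd68 (-0.031) and Mfap3l (1.12), and Cy3 arrays alone for Itga2b (-0.019), Xbp1 (0.020) and Bid (0.074). Mfap3l also turned without both arrays (0.048, or 0.14 with array weights and 0.051 with equal times) and with signs turned (0.048 for 7 h replicate 4, 0.30 for both). Esr1 ran from -0.014 without 3 h replicate 3 to 0.044 without 23 h replicate 3.

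The glycolysis median stayed above 0 in all settings run, from 0.01 to 0.21. The hypoxia median ran from -0.0036 to 0.21 and the granule median from -0.31 to 0.011, each past 0 only without both arrays and with Cy3 signs changed. Single probes without averaging give no value per gene and were counted only.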
